A study of Mus musculus with 4 samples.

Results

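Genes of the neural tube and hindbrain were examined in RNA-seq of the second heart field (SHF) region, the splanchnic mesoderm whose progenitor cells are added to the heart tube, microdissected from mouse embryos at E8.5. The genes were taken by name from a list of 38 symbols, which was drawn up with earlier results of these data known, so the counts below describe the list and are not independent support for its direction. Of these, 36 were among the 15803 genes of the deposited table, and Neurog1 and Tlx3 were not analysed here. The 36 genes were grouped by where in the neural tube they are known to be expressed: 10 dorsal, 5 intermediate and 4 ventral genes, 2 genes of the hindbrain, 8 genes of neural progenitors in general, and 7 genes of neurons or of cells becoming neurons. There were 2 libraries of Hoxb1 mutant embryos (Hoxb1Mu), in which the homeobox gene Hoxb1 had lost its function, and 2 libraries of wild-type embryos (WT). Per the methods of the study the mutants were homozygous, the region taken was also called pharyngeal, and RNA of several embryos of a genotype was pooled for a library. The methods name a GFP and an IRES-Cre allele of Hoxb1, without saying which of them the embryos of these libraries carried. Both genotypes were labelled with the same stage, E8.5, and per the methods the same region was dissected. The paper gives a range of somite numbers for these embryos, and none was labelled for a single library. No litter, batch or date was labelled either. Values are normalised counts, that is, read counts divided by 1 size factor for each library, and are given per library.

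The neural tube is patterned from both of its edges. BMP and WNT proteins of the roof plate and surface ectoderm maintain dorsal genes such as Pax3, Msx3 and the Zic genes, and Sonic hedgehog of the notochord and floor plate sets up nested ventral domains of Nkx6-1, Olig2 and Nkx2-2, with Pax6 and the Dbx genes between them. Along the body axis the hindbrain is divided into segments called rhombomeres. Hoxb1 marks rhombomere 4, Egr2 (Krox20) the rhombomeres on either side of it, and loss of Hoxb1 is known to change the identity of rhombomere 4. At this stage the neural tube consists mainly of dividing progenitors expressing Sox1, Sox2 and Sox3, and few neurons have formed. The dissected region was the SHF, and the amount of neural tissue in a library was not measured.

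Library size was similar, with 31331595 to 34383760 reads in the genes of the table. Hoxb1 itself (chromosome 11, 96365752 to 96368256, mm10) had 137 and 167 normalised counts in Hoxb1Mu, against 682 and 617 in WT, 4.26-fold lower (log2 fold change -2.09 ± 0.14 SE), which DESeq2 called (adjusted p = 2.73e-21) and limma did not (adjusted p = 0.0806). Of 12 genes that mark the SHF all were measured, at summed normalised counts of 12910 and 13720 in Hoxb1Mu and 12620 and 12810 in WT, so the labelled tissue was represented in every library. Transcripts of the forebrain and midbrain were present as well: Otx2, a homeobox gene of both, had 2455 and 2812 normalised counts in Hoxb1Mu and 2355 and 2005 in WT. Transcripts of the yolk sac endoderm varied most. Summed over 10 marker genes they came to 73060 and 33320 normalised counts in Hoxb1Mu, against 120000 and 111500 in WT. All 10 were lower in both Hoxb1Mu libraries than in both WT libraries, beside 27.1% of all genes (median log2 fold change -1.18). At an unadjusted limma p under 0.05, 9 were lower, beside 9.82% of all genes, and limma, edgeR and DESeq2 called 0. Within Hoxb1Mu the second library was the lower. The part of this difference in the results below was not tested beyond leaving out each library.

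Neural tube and hindbrain genes were more often higher than lower in Hoxb1Mu. With all 4 libraries, medians of the dorsal, ventral and hindbrain genes were above those of the other groups. That order changed with a library left out. Without WT 1 the neuronal median was 0.46, above the dorsal (0.43) and hindbrain (0.45) medians. Without Hoxb1Mu 1 the neuronal median was 0.35, above the ventral median of 0.31. Log2 fold changes, with Hoxb1Mu over WT, were above 0 for 27 of the 36 genes (75%) and below 0 for 9, where 50.1% of all 15760 genes tested were above 0 and 49.9% below. Both Hoxb1Mu libraries were above both WT libraries for 20 genes (55.6%, against 26.4% of all genes), and below both for 4 (11.1%, against 27.1% of all genes), and in 12 genes the groups overlapped. Dorsal genes Zic1, Msx3 and Pax3, the intermediate gene Pax6, the hindbrain gene Egr2, the progenitor gene Nes and the homeobox gene Tlx1 were called higher by DESeq2. The median log2 fold change was 0.28 over the 36 genes (-0.58 to 2.14), and 0.00061 over all genes.

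How firmly these differences were supported depended on the test. limma, the main test, called 0 of the 36 genes at an adjusted p under 0.05 and 0.0% of all genes (smallest adjusted p of a listed gene 0.142). At an unadjusted p under 0.05, limma had 15 of the 36 genes higher and 0 lower, beside 8.8% higher and 9.82% lower of all genes. edgeR also called 0 of them (smallest adjusted p 0.136) and 0.0% of all genes. At an unadjusted p under 0.05, edgeR had 14 of the 36 genes, beside 2869 of all 15760 genes tested. DESeq2 gave an adjusted p to 27 of the 36 genes and called 7 of these higher (25.9%) and 0 lower, beside 2.01% higher and 2.71% lower of all genes (4.72% in either direction). The other 9 genes had counts too low for its filter, and 7 were called when that filter was not used (beside 1.37% of all genes higher, 1.7% lower and 3.07% in either direction). With 1 library left out, DESeq2 called fewer of the 36 genes, while limma called 5 without Hoxb1Mu 1 (Pax3, Zic5, Msx3, Irx3 and Tlx1) and 0 in the other 3 fits. DESeq2 called Msx3 alone without Hoxb1Mu 1, Nes and Msx3 without Hoxb1Mu 2, Nes, Zic1 and Msx3 without WT 1, and 0 without WT 2, where Msx3, Zic1 and Tlx1 had no adjusted p. Pax3, Pax6, Egr2 and Tlx1 were therefore called by DESeq2 only with all 4 libraries. Over all genes the DESeq2 calls were 4.23%, 0.886%, 0.742% and 0.813% in these 4 fits, in the order Hoxb1Mu 1, Hoxb1Mu 2, WT 1 and WT 2 left out. The median over the 36 genes stayed between 0.20 and 0.30.

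**Figure D1:**
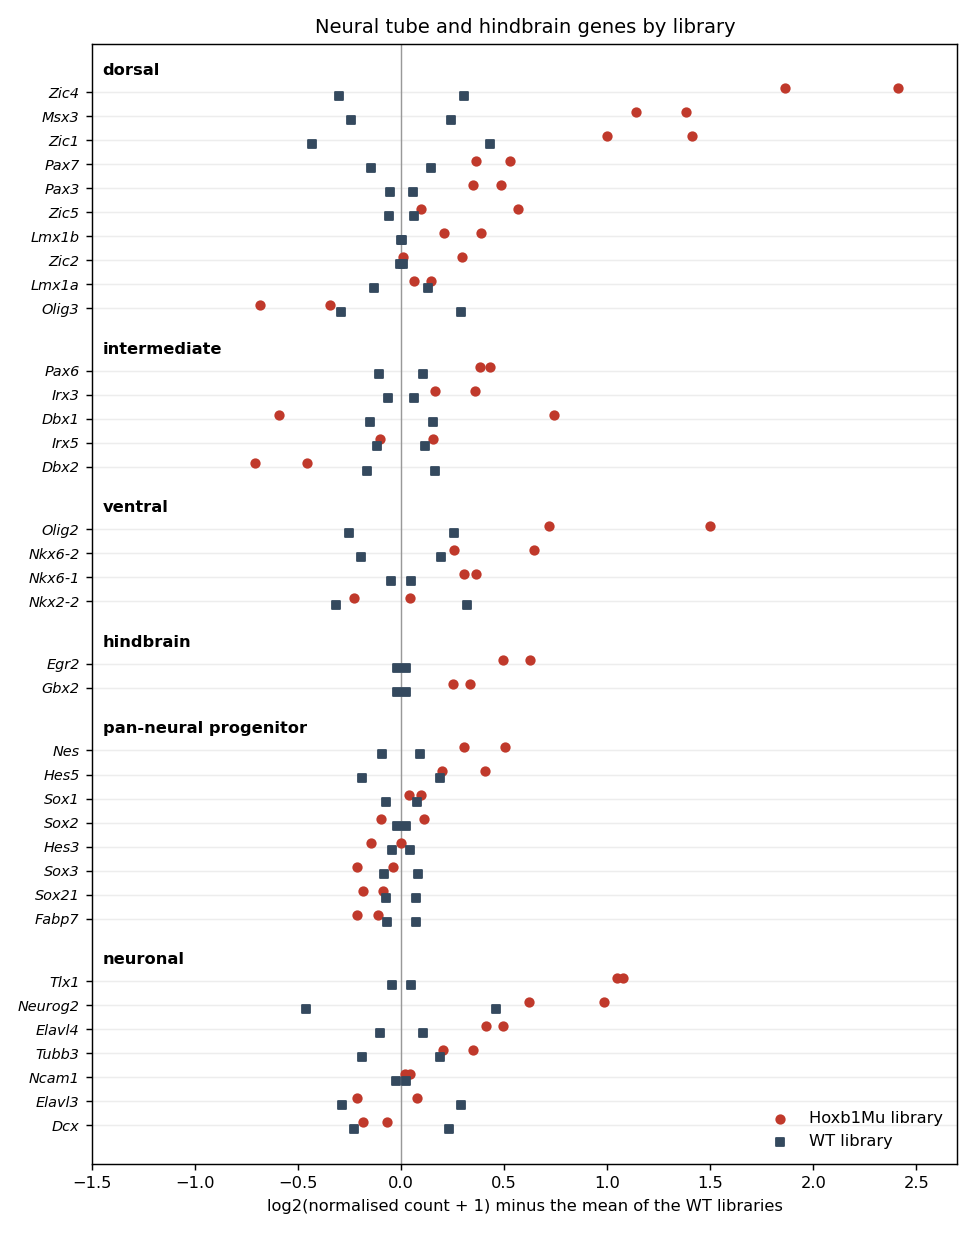
The plot of every gene by library shows log2(normalised count + 1) minus the mean of both WT libraries on the horizontal axis, with 1 row per gene, grouped by domain. Circles are Hoxb1Mu libraries and squares are WT libraries. In 20 of the 36 rows both circles lie right of both squares, and in 4 rows (Olig3, Dbx2, Sox21 and Fabp7) both lie left of them.

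Of the 10 dorsal genes, 9 had a log2 fold change above 0 (median 0.37, -0.52 to 2.14). Without overlap between the groups, 7 were higher, beside 26.4% of all genes, and 1 was lower, beside 27.1%. DESeq2 called 3 of the 9 with an adjusted p higher, beside 2.01% of all genes. Msx3, a homeobox gene of the dorsal neural tube, had 518 and 439 normalised counts in Hoxb1Mu and 235 and 167 in WT. Its level in either mutant library was therefore well above that of either WT library, 2.40-fold on average (log2 fold change 1.26 ± 0.19 SE, DESeq2 adjusted p = 5.18e-05, limma adjusted p = 0.142). Msx3 was also the gene that DESeq2 called in each of the 3 leave-one-out fits that gave it an adjusted p (0.0274, 0.00902 and 0.00267).

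The Zic genes encode zinc finger transcription factors of the dorsal neural tube and lie in pairs transcribed in opposite directions, Zic1 with Zic4 on chromosome 9 (start sites 3397 bases apart) and Zic2 with Zic5 on chromosome 14 (9758 bases apart). Zic1 (91358058 to 91365810) had 375 and 282 normalised counts in Hoxb1Mu and 190 and 104 in WT (log2 fold change 1.21 ± 0.30 SE, DESeq2 adjusted p = 0.0184, limma adjusted p = 0.163). Its groups were apart, although the WT libraries differed from each other by almost as much as the lower mutant library did from the higher WT library. Zic4 was scarce, with 30 and 22 reads in Hoxb1Mu and 6 and 4 in WT. It had the largest fold change of the 36 genes (log2 fold change 2.14 ± 0.48 SE), but DESeq2 gave it no adjusted p and limma did not call it (adjusted p = 0.155). Zic1 and Zic4 also share 60 exon bases on opposite strands, and whether reads were counted by strand is not known, so a few reads could belong to either. The other pair differed less. Zic5 had 449 and 622 normalised counts in Hoxb1Mu and 438 and 403 in WT (log2 fold change 0.33 ± 0.17 SE), with the first mutant library close to WT. Zic2, the most abundant of the 4, had 2050 and 2500 in Hoxb1Mu and 2050 and 2032 in WT, where the groups overlapped (0.15 ± 0.10 SE). Whether the Zic1 and Zic4 pair differed from the Zic2 and Zic5 pair in its response was not tested.

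Pax3, a paired-box factor of the dorsal neural tube, neural crest and somites, had 1380 and 1518 normalised counts in Hoxb1Mu and 1128 and 1043 in WT (log2 fold change 0.42 ± 0.080 SE, DESeq2 adjusted p = 0.0130, limma adjusted p = 0.155). Pax7, its close relative with a similar domain, had 573 and 643 in Hoxb1Mu and 493 and 403 in WT (0.45 ± 0.13 SE, DESeq2 adjusted p = 0.151). Both genes were thus higher in each mutant library than in each WT library, by a similar proportion, and only Pax3 passed the test of DESeq2. Lmx1b, a LIM homeobox factor of the roof plate and midbrain-hindbrain boundary, had 953 and 1080 in Hoxb1Mu and 827 and 824 in WT (0.30 ± 0.086 SE, DESeq2 adjusted p = 0.192). Its relative Lmx1a, a factor that specifies the roof plate, had 311 and 293 in Hoxb1Mu and 308 and 257 in WT, with overlapping groups (0.10 ± 0.13 SE). Olig3, a basic helix-loop-helix factor of dorsal progenitors, was the exception in the group. It had 143 and 181 normalised counts in Hoxb1Mu and 188 and 282 in WT, with the higher mutant library just under the lower WT library (log2 fold change -0.52 ± 0.23 SE, DESeq2 adjusted p = 0.393).

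Several of these genes are also expressed in the neural crest or the somites, which adjoin the neural tube. Of 12 neural crest markers, 6 were called higher by DESeq2 and 0 lower (median log2 fold change 0.27), beside 2.01% higher and 2.71% lower of all genes. Without overlap between the groups, 7 were higher and 1 lower, beside 26.4% and 27.1% of all genes. Their log2 fold changes ran from -0.50 to 1.4. Their summed level was 14000 and 15950 normalised counts in Hoxb1Mu and 11910 and 12510 in WT. Sox10, the defining marker of migrating crest cells, had 1223 and 1125 normalised counts in Hoxb1Mu and 552 and 526 in WT (log2 fold change 1.12 ± 0.083 SE, DESeq2 adjusted p = 3.06e-14), and was called by DESeq2 with any 1 of the 4 libraries left out. The somite list had 9 measured markers, of which DESeq2 gave 4 an adjusted p and called 0 (median log2 fold change 0.25). Without overlap between the groups, 5 were higher and 0 lower, beside 26.4% and 27.1% of all genes. At an unadjusted limma p under 0.05, 2 were higher, beside 8.8% of all genes. Summed levels were 3653 and 3900 in Hoxb1Mu and 3924 and 3247 in WT. List means of log2(normalised count + 1) relative to WT were 0.32 and 0.28 in Hoxb1Mu and 0.11 and -0.11 in WT. Uncx, a homeobox gene of the caudal part of each somite, had 58.5 and 56.6 normalised counts in Hoxb1Mu and 17.0 and 40.4 in WT. Most crest markers thus differed together with the dorsal genes. Somite sums overlapped between the groups, but somite list means did not. The part of either tissue in the dorsal result was not tested. Without Pax3 and Pax7 the dorsal median was 0.31 (0.17 to 0.48 with a library left out). That value cannot separate the tissues, since the genes kept were not sorted by where else they are expressed.

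Other genes of the dorsal neural tube, from a list made of further roof plate and dorsal progenitor genes, did not share this direction. Of 11 measured, DESeq2 gave 10 an adjusted p and called 0, and the median log2 fold change was -0.22. In Hoxb1Mu 4 genes were apart and higher and 6 apart and lower, beside 26.4% and 27.1% of all genes. An unadjusted edgeR p under 0.05 was found for 6 of 11, beside 2869 of all 15760 genes tested, and edgeR and limma called 0. Wnt1, the WNT ligand of the roof plate, had 608 and 672 normalised counts in Hoxb1Mu and 693 and 585 in WT, so the groups overlapped (0.0058 ± 0.11 SE). Wnt3a, a second dorsal WNT ligand, had 221 and 211 in Hoxb1Mu and 172 and 144 in WT (0.45 ± 0.15 SE). Msx1 and Msx2, BMP-responsive relatives of Msx3 that are also expressed in ectoderm and mesenchyme, went the other way from Msx3. Msx1 had 1619 and 1789 in Hoxb1Mu and 1949 and 2339 in WT (-0.33 ± 0.10 SE, DESeq2 adjusted p = 0.0854). Msx2 had 902 and 925 in Hoxb1Mu and 1084 and 1197 in WT (-0.32 ± 0.079 SE, DESeq2 adjusted p = 0.109). Within the Msx family, then, members were apart in opposite directions, and of the 3 DESeq2 called only Msx3.

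**Figure D2:**
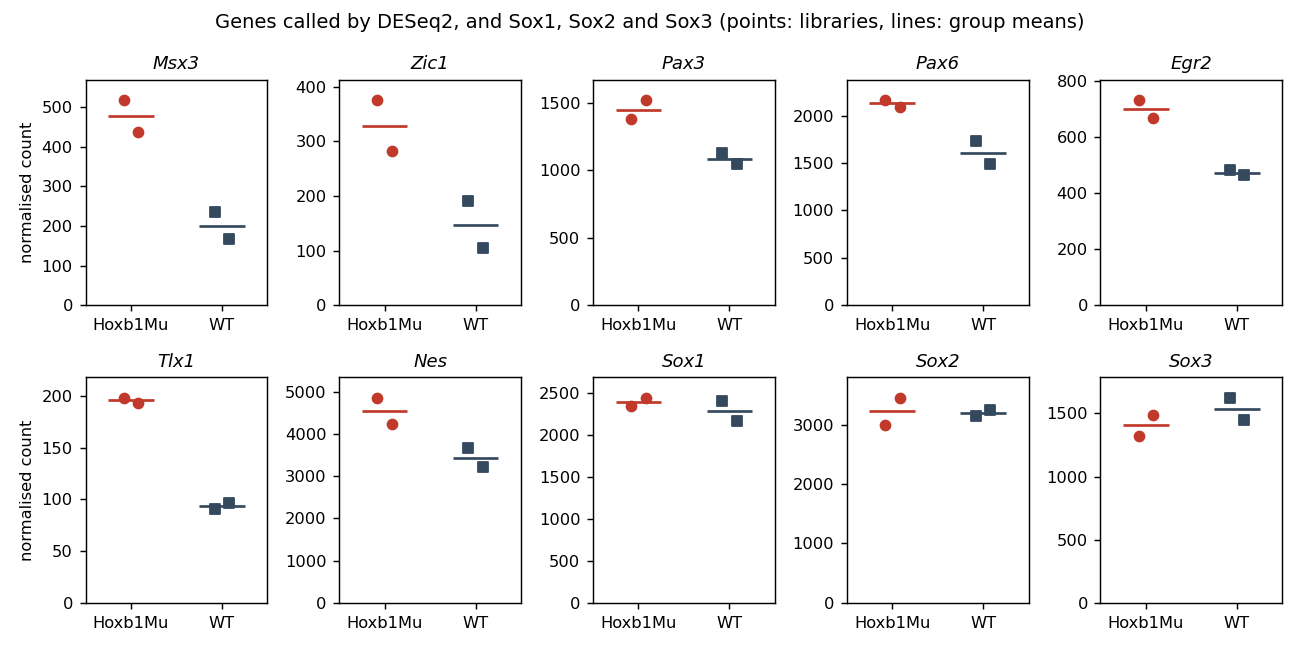
The plot of single genes shows normalised counts on a vertical axis that starts at 0, with Hoxb1Mu libraries as circles, WT libraries as squares and lines at the group means. The first 7 panels are the genes called by DESeq2, in which both Hoxb1Mu points lie above both WT points, and the last 3 panels are Sox1, Sox2 and Sox3, in which the points of the groups overlap.

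Both hindbrain genes on the list were higher in Hoxb1Mu (median log2 fold change 0.43). Egr2 (chromosome 10, 67535475 to 67542188), the zinc finger factor of the rhombomeres flanking the Hoxb1 domain, which also marks neural crest leaving the hindbrain, had 732 and 667 normalised counts in Hoxb1Mu and 481 and 467 in WT. The difference, 1.47-fold, was several times the distance between libraries of a group (log2 fold change 0.56 ± 0.092 SE, DESeq2 adjusted p = 0.0112, limma adjusted p = 0.152). Gbx2, a homeobox factor of the anterior hindbrain that positions the midbrain-hindbrain boundary, had 644 and 681 in Hoxb1Mu and 549 and 533 in WT (0.29 ± 0.085 SE, DESeq2 adjusted p = 0.293). An RNA gene on the other strand, D130058E05Rik, covers 43.5% of the exon bases of Gbx2, so reads of both could not be told apart without strand. Genes on the other strand likewise cover 31.8% of the exon bases of Hes5, 18.8% of those of Sox21, 12.9% of those of Nkx6-2 and 9.67% of those of Nkx2-2.

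A longer list of hindbrain segment genes was read beside Egr2 and Gbx2. Of 18 genes measured, 16 had a log2 fold change above 0 and 2 below (median 0.23, -0.48 to 1.24). Of 17 with an adjusted p DESeq2 called 4 higher and 1 lower, beside 2.01% higher and 2.71% lower of all genes. When its filter was not used, it called 2 higher and 1 lower. The gene called lower is not reported here by name. Cyp26b1 and Cyp26c1, which encode retinoic acid degrading enzymes expressed in rhombomeres, were among those called. Cyp26b1 had 399 and 317 normalised counts in Hoxb1Mu and 164 and 137 in WT (log2 fold change 1.24 ± 0.17 SE, DESeq2 adjusted p = 1.41e-04). Cyp26c1 had 2385 and 2662 in Hoxb1Mu and 1970 and 2005 in WT (0.34 ± 0.070 SE, DESeq2 adjusted p = 0.0112). Both enzymes were higher in each mutant library, Cyp26b1 by the larger factor. Hoxa2, the Hox gene with the most anterior limit in the hindbrain, had 381 and 305 in Hoxb1Mu and 215 and 202 in WT (0.71 ± 0.15 SE, DESeq2 adjusted p = 0.0452). Hoxd3 had 325 and 309 in Hoxb1Mu and 138 and 213 in WT (0.88 ± 0.22 SE, DESeq2 adjusted p = 0.0474). Of the exon bases of Hoxd3, 53.1% are shared with another gene model on the same strand, Gm28230, so its count is uncertain. Hoxa2 likewise shares 15.0% of its exon bases with Gm28308 on the same strand. Hoxb2, a target of Hoxb1 in rhombomere 4, had 226 and 210 in Hoxb1Mu and 192 and 215 in WT, with overlapping groups (0.10 ± 0.14 SE). A gene on the other strand, Hoxb3os, covers 27.3% of the exon bases of Hoxb2. With a library left out, DESeq2 called Cyp26b1 without Hoxb1Mu 2 (adjusted p = 0.0156) and Cyp26c1 without Hoxb1Mu 1 (adjusted p = 0.0364), and none of the other fits called these, Hoxa2 or Hoxd3.

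Promoter sequences were read for the listed genes, since Hox proteins bind with Pbx partners at sites whose core can be written TGATNNAT. RefSeq start sites (GRCm38.p6) were found for 32 of the 38 symbols, with 41 windows of 300 bases running from 250 bases before the start to 50 after it. The core was searched on both strands, and no other motif was searched. It was found for 5 of the 32 genes, Dcx, Egr2, Nkx6-2, Tlx1 and Zic1, and for 10.1% of all 27025 genes with a window (8.85% of 32851 windows). Among the genes that DESeq2 called, Msx3, Pax6 and Nes had windows without the core, and Pax3 had no window. A match is a string of letters and not a binding site. The windows of Zic1, Tlx1 and Egr2, which hold the core, and of Msx3, which does not and had the smallest adjusted p, are printed 5′ to 3′ on the strand of the gene, with the core or its reverse complement in capitals. They were chosen after the matches were seen. The core begins 74 bases before the start of Zic1 (chr9:91365719-91366018, minus strand, reverse complement), 44 bases before that of Tlx1 (chr19:45150465-45150764, plus strand) and 15 bases after that of Egr2 (chr10:67537619-67537918, plus strand, 1 of 5 starts listed). Other windows of Egr2, chr10:67535249-67535548 and chr10:67537316-67537615, lacked the core. The window of Msx3 is chr7:140049039-140049338 on the minus strand.
Zic1: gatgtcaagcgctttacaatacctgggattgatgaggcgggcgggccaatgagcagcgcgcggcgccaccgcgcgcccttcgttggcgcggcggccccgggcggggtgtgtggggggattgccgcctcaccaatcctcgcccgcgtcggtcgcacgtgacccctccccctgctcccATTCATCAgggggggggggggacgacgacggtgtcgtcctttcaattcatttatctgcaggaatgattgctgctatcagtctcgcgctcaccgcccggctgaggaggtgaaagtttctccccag
Tlx1: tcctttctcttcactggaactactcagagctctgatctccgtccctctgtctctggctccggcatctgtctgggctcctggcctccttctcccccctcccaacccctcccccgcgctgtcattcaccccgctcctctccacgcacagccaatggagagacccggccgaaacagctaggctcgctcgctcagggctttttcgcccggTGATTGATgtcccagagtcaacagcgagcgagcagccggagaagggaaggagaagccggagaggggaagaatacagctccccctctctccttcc
Egr2: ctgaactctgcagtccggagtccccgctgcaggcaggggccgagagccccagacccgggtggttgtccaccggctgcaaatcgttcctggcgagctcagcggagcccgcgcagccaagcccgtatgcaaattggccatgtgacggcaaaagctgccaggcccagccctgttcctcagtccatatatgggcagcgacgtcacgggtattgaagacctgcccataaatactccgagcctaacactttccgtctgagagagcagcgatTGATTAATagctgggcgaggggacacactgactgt
Msx3: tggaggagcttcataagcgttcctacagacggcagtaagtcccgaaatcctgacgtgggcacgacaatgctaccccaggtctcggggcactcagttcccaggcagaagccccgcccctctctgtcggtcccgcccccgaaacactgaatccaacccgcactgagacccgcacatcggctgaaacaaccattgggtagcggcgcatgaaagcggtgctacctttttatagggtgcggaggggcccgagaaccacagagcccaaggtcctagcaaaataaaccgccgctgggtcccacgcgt

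Of the 5 genes of the intermediate neural tube, Pax6 and Irx3 were apart and higher in Hoxb1Mu, Dbx2 was apart and lower, and Irx5 and Dbx1 overlapped (median log2 fold change 0.074). Of all genes, 26.4% were apart and higher and 27.1% apart and lower. Pax6, a paired-box factor of intermediate progenitors and of the forebrain and eye, had 2164 and 2097 normalised counts in Hoxb1Mu and 1732 and 1492 in WT, 1.32-fold higher (log2 fold change 0.41 ± 0.084 SE, DESeq2 adjusted p = 0.00889, limma adjusted p = 0.155). Irx3 and Irx5 are Iroquois homeobox genes of 1 cluster on chromosome 8, and they differed from each other in their values. Irx3 had 2716 and 3114 in Hoxb1Mu and 2321 and 2535 in WT (0.26 ± 0.084 SE, DESeq2 adjusted p = 0.113), while Irx5 had 993 and 1187 in Hoxb1Mu and 985 and 1157 in WT (0.024 ± 0.12 SE). Dbx1 and Dbx2, homeobox genes that mark progenitors of interneurons, were scarce. Dbx1 had 42.0 and 16.03 in Hoxb1Mu and 27.6 and 22.1 in WT, with the mutant libraries on either side of both WT libraries. Dbx2 had 21.5 and 17.9 in Hoxb1Mu and 26.6 and 33.7 in WT (-0.58 ± 0.33 SE), and neither gene had an adjusted p in DESeq2.

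Ventral genes were higher in Hoxb1Mu in 3 of 4 cases without overlap (median log2 fold change 0.39), beside 26.4% of all genes. DESeq2 called 0 of the 2 to which it gave an adjusted p. At an unadjusted p under 0.05, limma had 2 of the 4 higher, beside 8.8% of all genes. At the same threshold edgeR had 2 of the 4, beside 2869 of all 15760 genes tested. Olig2, the factor of motor neuron progenitors, had 99.5 and 57.5 normalised counts in Hoxb1Mu and 41.4 and 28.9 in WT. Its mean was 2.16-fold higher in Hoxb1Mu, but the mutant libraries were further from each other than the lower of them was from WT (log2 fold change 1.11 ± 0.35 SE, limma adjusted p = 0.204). Nkx6-1, a homeobox factor of the ventral progenitors including those of motor neurons, had 643 and 670 in Hoxb1Mu and 503 and 538 in WT (0.34 ± 0.088 SE, DESeq2 adjusted p = 0.213). Nkx6-2, its relative, had 174 and 133 in Hoxb1Mu and 128 and 97.1 in WT (0.45 ± 0.22 SE, DESeq2 adjusted p = 0.559), with the groups barely apart. Nkx2-2, the factor of the most ventral progenitors beside the floor plate, had 39.0 and 47.2 in Hoxb1Mu and 57.4 and 36.6 in WT, and its groups overlapped (-0.094 ± 0.31 SE). Of 10 other ventral genes, DESeq2 gave 5 an adjusted p and called 0 (median log2 fold change 0.046). At an unadjusted p under 0.05, edgeR had 3 of the 10, beside 2869 of all 15760 genes tested. Shh, the ligand that organises the ventral tube and is also made by notochord and endoderm, had 404 and 427 in Hoxb1Mu and 478 and 390 in WT (-0.055 ± 0.13 SE). Foxa2, of the floor plate, notochord and endoderm, had 523 and 489 in Hoxb1Mu and 626 and 597 in WT (-0.27 ± 0.090 SE, DESeq2 adjusted p = 0.374). The ventral organiser genes thus gave no call in either direction.

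Genes of neural progenitors in general were as often above WT as below it, and of the 7 with an adjusted p DESeq2 called only Nes. Of 8 genes, 4 had a log2 fold change above 0 and 4 below (median -0.035, -0.16 to 0.40). Without overlap between the groups, 2 were higher, beside 26.4% of all genes, and 2 were lower, beside 27.1%. The SoxB1 genes encode the transcription factors that keep cells of the neural tube in a progenitor state. Sox1 had 2339 and 2441 normalised counts in Hoxb1Mu and 2404 and 2165 in WT (log2 fold change 0.067 ± 0.070 SE). Sox2 had 2993 and 3449 in Hoxb1Mu and 3151 and 3250 in WT (0.0058 ± 0.077 SE). Sox3 had 1319 and 1490 in Hoxb1Mu and 1622 and 1448 in WT (-0.13 ± 0.091 SE). All 3 overlapped between the groups, and each had an SE under 0.10, so the precision for these abundant genes was as good as for Pax3, Pax6 and Egr2. Of the remaining genes, Sox21, a SoxB2 factor that counters the SoxB1 proteins, had 1498 and 1604 in Hoxb1Mu and 1620 and 1794 in WT (-0.14 ± 0.077 SE). Fabp7, a fatty acid binding protein of radial progenitors, had 160 and 149 in Hoxb1Mu and 182 and 165 in WT (-0.16 ± 0.15 SE). Both were apart and lower, by less than 2 SE, and neither was called by DESeq2 (adjusted p = 0.572 and 0.849). Hes5, a repressor regulated by Notch, had 121 and 105 in Hoxb1Mu and 104 and 79.8 in WT, so it was apart and higher by a narrow margin (0.30 ± 0.21 SE), and DESeq2 gave it no adjusted p. Its relative Hes3 had 887 and 980 in Hoxb1Mu and 1012 and 953 in WT, with overlapping groups (-0.075 ± 0.083 SE).

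Nes, the intermediate filament nestin of neural progenitors, was the 1 gene of this group that was called. It had 4852 and 4235 normalised counts in Hoxb1Mu and 3656 and 3213 in WT, 1.32-fold higher (log2 fold change 0.40 ± 0.091 SE, DESeq2 adjusted p = 0.00317, limma adjusted p = 0.155). Nestin is also expressed in somitic muscle progenitors, developing heart muscle and endothelium. Of 12 cardiomyocyte markers, 9 were called higher by DESeq2 and 0 lower (median log2 fold change 0.43), beside 2.01% higher and 2.71% lower of all genes. Their summed levels were 76190 and 89100 normalised counts in Hoxb1Mu and 58220 and 58310 in WT. Of 8 endothelial markers 0 were called (median 0.077), and edgeR had 3 at an unadjusted p under 0.05, beside 2869 of all 15760 genes tested. The part of these cells in the level of Nes was not tested.

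Of the 7 neuronal genes measured, 4 were apart and higher in Hoxb1Mu, beside 26.4% of all genes, and 3 overlapped (median log2 fold change 0.28). Tlx1, a homeobox gene of sensory and hindbrain neurons and also of the branchial arches and spleen primordium, was the 1 gene called. It had 198 and 193 normalised counts in Hoxb1Mu and 90.3 and 96.2 in WT, 2.09-fold higher, with libraries of a group within a few counts of each other (log2 fold change 1.06 ± 0.15 SE, DESeq2 adjusted p = 0.0122, limma adjusted p = 0.142). Tubb3, the neuronal beta-tubulin, had 1293 and 1433 in Hoxb1Mu and 1282 and 986 in WT (0.28 ± 0.13 SE, DESeq2 adjusted p = 0.380), where the lower mutant library was level with the higher WT library. Neurog2, a proneural factor, had 64.6 and 49.99 in Hoxb1Mu and 44.6 and 23.1 in WT (0.80 ± 0.38 SE). Elavl4, an RNA-binding protein of new neurons, had 120 and 113 in Hoxb1Mu and 91.4 and 78.9 in WT (0.45 ± 0.18 SE), and DESeq2 gave neither an adjusted p. Elavl3, its relative, and Dcx, a microtubule protein of migrating neurons, overlapped between the groups. Elavl3 had 96.4 and 118 in Hoxb1Mu and 137 and 91.4 in WT, and Dcx had 20.5 and 18.9 in Hoxb1Mu and 25.5 and 18.3 in WT. Ncam1, a cell adhesion molecule of neurons that heart and other mesoderm also express, had 982 and 968 in Hoxb1Mu and 972 and 939 in WT (0.029 ± 0.069 SE). Among 15 further neuronal genes, DESeq2 gave 11 an adjusted p and called 0 (median log2 fold change -0.051). At an unadjusted p under 0.05, edgeR had 1 of the 15, beside 2869 of all 15760 genes tested.

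**Figure D3:**
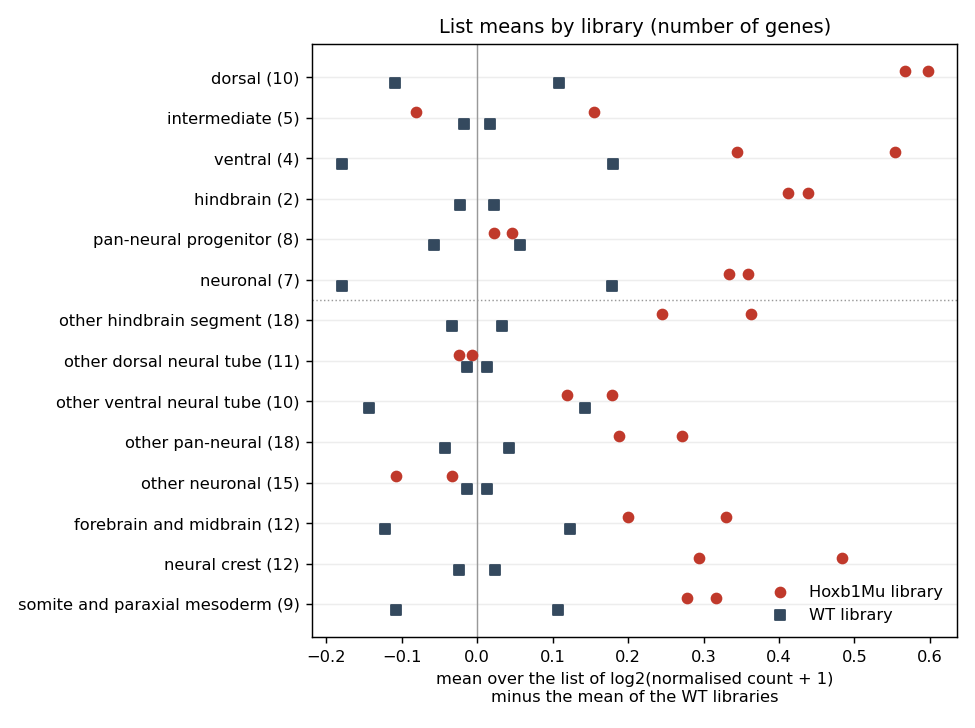
The plot of list means gives, for each library, the mean over a list of log2(normalised count + 1) minus the mean of both WT libraries, with the number of genes in brackets and Hoxb1Mu as circles and WT as squares. The dorsal list lies at 0.57 and 0.60 in Hoxb1Mu and at 0.11 and -0.11 in WT, and the pan-neural progenitor list at 0.023 and 0.046 in Hoxb1Mu and at 0.057 and -0.057 in WT.

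Averaged by list, the 2 Hoxb1Mu libraries were close to each other for the dorsal genes (0.57 and 0.60), the hindbrain pair (0.44 and 0.41) and the neuronal genes (0.36 and 0.33), on the scale of log2(normalised count + 1) relative to WT. They were further apart for the ventral genes (0.55 and 0.34) and lay on either side of WT for the intermediate genes (0.15 and -0.081). The intermediate means take in the scarce Dbx1 and Dbx2. With Hoxb1Mu 1 left out, these had log2 fold changes of -0.59 and -0.71, and Pax6, Irx3 and Irx5 of 0.38, 0.36 and 0.15. Summed over the intermediate genes, normalised counts were 5936 and 6431 in Hoxb1Mu and 5092 and 5240 in WT. The WT libraries were furthest from each other for the ventral and neuronal genes (0.18 and -0.18 for each list) and much closer for the hindbrain pair (0.022 and -0.022). The dorsal difference was thus more than 2 times the distance between WT libraries, and the neuronal difference was of about the same size as that distance. The dorsal means lay above the dorsal median log2 fold change of 0.37. They take in the large changes of Msx3 (1.3), Zic1 (1.2) and the scarce Zic4 (2.1), so they do not describe a shift of every dorsal gene.

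Levels were compared between genes only per kb of exon. Sox2 was the most abundant of the 36 genes in both groups, at 1566 normalised counts per kb in Hoxb1Mu and 1556 in WT, followed by Irx3 at 1055 in Hoxb1Mu and 879 in WT. Zic2, at 790 in Hoxb1Mu and 709 in WT, and Sox3, at 680 in Hoxb1Mu and 743 in WT, stood in the opposite order in the 2 groups. Nes stood at 708 in Hoxb1Mu and 535 in WT, and Sox1 at 495 in Hoxb1Mu and 473 in WT. The genes with the largest fold changes were of lower level. Msx3 had 203 normalised counts per kb in Hoxb1Mu and 85.3 in WT, Zic1 had 57.7 in Hoxb1Mu and 25.8 in WT, and Zic4 had 2.49 in Hoxb1Mu and 0.494 in WT. Dcx was also scarce, at 1.56 in Hoxb1Mu and 1.73 in WT. In samples of whole tissue, more cells of a type and more RNA per cell cannot be told apart, so these levels do not say whether neural tissue was larger in the mutant libraries or expressed these genes more strongly.

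**Figure D4:**
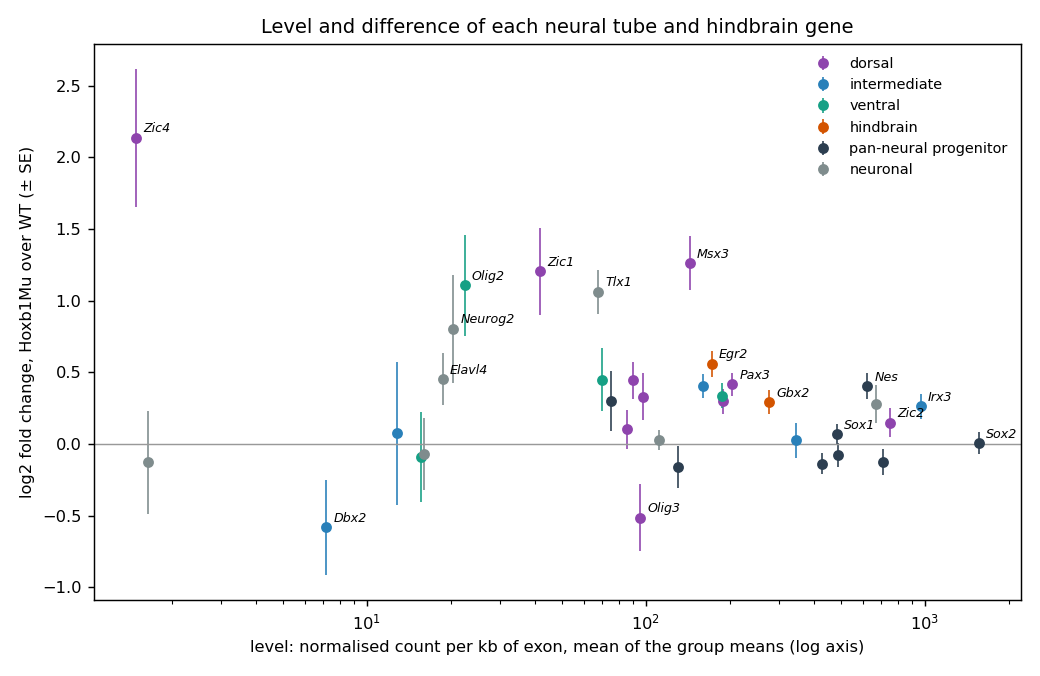
The plot of level against difference shows each of the 36 genes at its normalised count per kb of exon (horizontal, log axis, mean of both groups) and its log2 fold change of Hoxb1Mu over WT with bars of 1 SE (vertical), coloured by domain. Abundant genes such as Sox2 and Sox1 lie near 0, and Msx3, Zic1 and Tlx1 lie above 1 with short to moderate bars, while the scarce Zic4 has one of the longest bars.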

How the data were processed

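RNA-seq was analysed for 2 Hoxb1Mu and 2 WT libraries. Per the labels, little total RNA went into each library and its complementary DNA was amplified, so reads are not independent molecules. The submitters' processing notes name bcl2fastq 2.17.1.14, STAR 2.5.2 on mm10, HTSeq, R 3.3.4 and DESeq2. The methods of the study say that unexpressed genes had been taken out. The methods also describe quantification with RSEM on an Ensembl release, and whether that annotation lies behind the deposited values, and whether counting used strand, is unclear. The deposited table gives each gene's normalised signal in every library (reads over the size factor that the authors used) and the mean of these. The authors' log2 column holds their fold change, their score column a test statistic, and their deposited p-value columns a p and an adjusted p. None of these was used. The symbols of 13 genes had become dates, and they are left unnamed.

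Every value was a whole multiple of its library's step (100%, tolerance 0.001 of a read), which gave back read counts (31711309 and 34383760 in Hoxb1Mu, 31331595 and 34244827 in WT). The main test was limma-trend (limma 3.58.1, R 4.3.3) on log2(normalised value + 1), for 15760 genes whose mean was 10 or more (43 left out), with a 2-sided Benjamini-Hochberg adjusted p under 0.05 over all of them. DESeq2 1.42.0 and the quasi-likelihood test of edgeR 4.0.16 with TMM factors (15732 genes) were run on the recovered reads. Fold changes and SEs are those of limma unless DESeq2 is named. They are on the scale with the added 1, which understates changes of scarce genes. A p measures the spread between 2 libraries of pooled embryos. The limma, DESeq2 and edgeR fits were tested on simulated counts, and the other steps were not. Positions and exon lengths came from GENCODE on mm10, promoters from RefSeq (GRCm38.p6). Alternatives were other pseudocounts, filters, scalings and tests, and leaving out each library.

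The genes and lists were chosen with earlier results of these data known. Every listed gene is accounted for. Values per library are given for genes called by DESeq2, for those with the largest change each way in a group, and for a fixed set of central genes, and other genes were added after their values were seen. Some genes of the compared lists enter the counts and medians but are not reported here.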

Additional observations from a re-analysis of the deposited data

How the results depend on the processing

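Over all genes limma called 0, DESeq2 556, and limma with a library left out 0 to 941 (941 without Hoxb1Mu 1, 42 without Hoxb1Mu 2, 0 without either WT library), where Pax3, Zic5, Msx3, Irx3 and Tlx1 were called without Hoxb1Mu 1. DESeq2 with a library left out called 71 to 589 genes. Hoxb1 passed limma without Hoxb1Mu 1 (-1.95, adjusted p = 1.66e-04) and without Hoxb1Mu 2 (-2.23, adjusted p = 0.00136), and passed DESeq2 (-2.09), with a leave-one-out range of -2.23 to -1.95. Medians moved as follows when a library was left out: pan-neural -0.10 to 0.047, dorsal 0.28 to 0.51, intermediate 0.14 to 0.20, neuronal 0.086 to 0.46. The intermediate median was 0.26 with a mean of at least 50, which leaves 3 genes, 0.22 with DESeq2 and 0.22 with edgeR, and the hindbrain median was 0.45 with equal totals. TMM factors moved the median of all genes by 0.0046 and equal totals by 0.028. Of 426 log2 fold changes of the 36 genes under alternatives, 13 changed sign, in 8 genes and each with a library left out. With both ends of their leave-one-out range, these were Sox1 (-0.0089 without WT 2, to 0.14), Sox2 (-0.096 without Hoxb1Mu 2, -0.016 without WT 1, to 0.11), Lmx1a (-0.029 without WT 2, to 0.23), Irx5 (-0.10 without Hoxb1Mu 2, -0.092 without WT 1, to 0.15), Dbx1 (-0.59 without Hoxb1Mu 1, -0.080 without WT 2, to 0.74), Nkx2-2 (0.041 without Hoxb1Mu 1, 0.22 without WT 1, down to -0.41), Dcx (0.10 without WT 1, down to -0.36) and Elavl3 (0.074 without Hoxb1Mu 1, 0.22 without WT 1, down to -0.36). The cause was not tested. With a single library left in a group, that library was assumed to vary like the other group. No paired analysis was possible because the labels give no replicate numbers. With 2 libraries a group, scarce genes such as Zic4, Dbx1, Dbx2 and Olig2 were the least certain.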

Other observations

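Neural genes outside the 36 were also higher in some cases. Of 12 genes of the forebrain and midbrain, 8 were apart and higher in Hoxb1Mu, beside 26.4% of all genes. DESeq2 called 3 of them higher, beside 2.01% of all genes. En2, a homeobox gene of the midbrain-hindbrain boundary, had 550 and 524 normalised counts in Hoxb1Mu and 323 and 264 in WT (log2 fold change 0.88 ± 0.13 SE, DESeq2 adjusted p = 7.31e-04). Pax5, a paired-box gene of the same boundary, had 1711 and 1708 in Hoxb1Mu and 1297 and 1212 in WT (0.45 ± 0.065 SE, DESeq2 adjusted p = 0.00108). Fgf15, a growth factor of the neural tube, had 1670 and 1712 in Hoxb1Mu and 1309 and 1124 in WT (0.48 ± 0.087 SE, DESeq2 adjusted p = 0.00291). En1, the relative of En2, had 910 and 1136 in Hoxb1Mu and 1003 and 1072 in WT, where the groups overlapped (-0.029 ± 0.12 SE). Six3, a homeobox gene of the forebrain, had 796 and 1007 in Hoxb1Mu and 938 and 684 in WT, with overlapping groups, and was not called by DESeq2 (adjusted p = 0.779). With 1 library left out, DESeq2 called Fgf15 without WT 1 (adjusted p = 0.0494) and called En2 and Pax5 in none of the 4 fits.

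Among 18 further genes of neural progenitors, DESeq2 called 3 higher and 0 lower (median log2 fold change 0.15), beside 2.01% higher and 2.71% lower of all genes. Pou3f2, a POU factor of the neural tube, had 548 and 465 normalised counts in Hoxb1Mu and 307 and 241 in WT (log2 fold change 0.89 ± 0.16 SE, DESeq2 adjusted p = 0.00259). Crabp1, a retinoic acid binding protein of the hindbrain and neural crest, had 10350 and 8708 in Hoxb1Mu and 7694 and 6592 in WT (0.41 ± 0.11 SE, DESeq2 adjusted p = 0.00280). Pax8, which also marks the otic placode and kidney field, had 460 and 473 in Hoxb1Mu and 283 and 324 in WT (0.62 ± 0.11 SE, DESeq2 adjusted p = 0.0276). DESeq2 did not call Sox11, Msi1 or Prtg, which are abundant in the early neural tube, at log2 fold changes of 0.15, 0.12 and 0.072 (adjusted p = 0.160, 0.424 and 0.641). With 1 library left out, DESeq2 called Crabp1 without Hoxb1Mu 2 and without WT 1 (adjusted p = 6.06e-04 and 0.00152) and called Pou3f2 and Pax8 in none of the 4 fits.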
